A study of Mus musculus with 18 samples.

Results

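Ifi27, Acyp2, Unc13b, Rexo2 and Cltb are 5 of the 17097 genes measured in mouse liver, and each read higher on every liver array from NPC1L1-transgenic mice than on every wild-type array on its representative probe set. They were chosen by that difference: an earlier analysis of these arrays listed the 10 largest rises among genes called higher with non-overlapping groups, and these are the listed genes that encode neither a proteasome subunit nor the deiodinase Dio1. Their rise in transgenic liver is therefore described without a test, and tests are given for the antisense experiment, which the choice did not use, and for related genes. The platform annotation gives them 9 probe sets of 45037. Cltb, the last of those 10 rises, differed by 0.37 on the log2 scale, and Rex1bd, the first beyond them, by 0.35.

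All samples were liver of female mice aged 6 to 8 weeks. NPC1L1-Liver-Transgenic mice (n = 5) were set against wild type (n = 5), both on the C57BL/6 strain, as a chronic stimulus of transintestinal cholesterol excretion, a path by which cholesterol leaves the body without passing through bile. Mice of the C57BL/6N strain received an ASO, an antisense oligonucleotide, to knock down ACAT2 (n = 4) or, as controls, a non-targeting one (n = 4, here control ASO), as an acute stimulus. The labels name neither the promoter that drives the transgene nor the dose or duration of the ASO. They number the samples without stating separate animals, so p-values reflect only how far these samples spread, and that spread may be technical. Values are RMA summaries on a log2 scale, and no level of one model is set against the other model. Array medians ranged from 4.61 to 4.65 with the transgene and its wild type, and from 4.38 to 4.40 with the ASOs. The group means of all 6 hepatocyte markers lay between 10.65 and 13.58. The mouse probe set for Npc1l1 averaged 3.82 ± 0.22 in wild type and 3.68 ± 0.07 in transgenic liver (SD, n = 5). The labels do not give the species of the transgene, so this reading checks no label. The lowest mean correlation with other arrays of the same group was found for wild type 2 (0.988), control ASO 4 (0.988) and ACAT2 ASO 1 (0.991).

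The genes act in unlike places. Ifi27 encodes a small mitochondrial membrane protein induced by interferons, the cytokines of antiviral defence. Acyp2 encodes an acylphosphatase, a cytosolic enzyme that hydrolyses acyl phosphates. Unc13b encodes a protein of the Munc13 family, which primes secretory vesicles for fusion by opening syntaxin for assembly of the SNARE complex. Rexo2 encodes an exonuclease that degrades very short RNA in mitochondria. Cltb encodes clathrin light chain B, which decorates the heavy chains of the clathrin lattice on budding vesicles.

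Promoter sequences show what lies before these genes, each of which was chosen for its rise in transgenic liver. Promoters were matched by gene name in RefSeq (build GRCm38.p6) for 4 of the 5 genes, and no match was found for Ifi27. Each line holds the 250 bases before the annotated start, 5′ to 3′ along the gene. Capitals mark matches to any of 9 motifs searched on both strands. These were the ISRE (TTTCNNTTTC), antioxidant response element (TGACNNNGC), sterol regulatory element (TCACNCCAC), NRF1 site (GCGCANGCGC), cAMP response element (TGACGTCA), TATA box (TATAAA), the box with the letters CCAAT, the GC box (GGGCGG) and the ETS site (CCGGAAG).
Unc13b (chr4:43058703-43058952, plus strand): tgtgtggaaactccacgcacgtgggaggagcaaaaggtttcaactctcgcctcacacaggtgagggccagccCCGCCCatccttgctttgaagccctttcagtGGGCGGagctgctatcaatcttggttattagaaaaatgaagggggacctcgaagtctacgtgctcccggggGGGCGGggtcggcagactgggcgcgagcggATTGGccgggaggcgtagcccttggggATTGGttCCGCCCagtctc
Rexo2 (chr9:48480612-48480861, minus strand): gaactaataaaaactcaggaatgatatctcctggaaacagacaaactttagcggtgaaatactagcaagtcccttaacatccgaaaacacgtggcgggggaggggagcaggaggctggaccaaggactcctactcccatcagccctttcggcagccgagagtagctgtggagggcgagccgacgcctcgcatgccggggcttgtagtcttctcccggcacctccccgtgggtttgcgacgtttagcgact
Acyp2 (chr11:30649397-30649646, minus strand): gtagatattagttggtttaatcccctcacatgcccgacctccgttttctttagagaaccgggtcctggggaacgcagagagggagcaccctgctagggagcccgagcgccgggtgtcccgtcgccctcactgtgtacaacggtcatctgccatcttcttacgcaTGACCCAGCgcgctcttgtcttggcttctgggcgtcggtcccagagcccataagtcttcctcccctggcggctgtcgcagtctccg
Cltb (chr13:54611374-54611623, minus strand): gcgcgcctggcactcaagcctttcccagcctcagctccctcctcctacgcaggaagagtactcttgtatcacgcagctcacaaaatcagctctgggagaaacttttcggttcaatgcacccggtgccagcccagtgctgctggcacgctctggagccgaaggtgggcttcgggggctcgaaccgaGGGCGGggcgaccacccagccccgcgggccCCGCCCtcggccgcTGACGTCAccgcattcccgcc
No motif was found in all 4 promoters, and the GC box was found in 2. Unc13b had 4 matches to the GC box and 2 to the letters CCAAT, motifs found in 32.7% and 33.8% of the 32851 promoters of this length. Cltb had 2 matches to the GC box and 1 to the cAMP response element, which 1.55% of promoters hold. Acyp2 had 1 match to the antioxidant response element, found in 10.2% of promoters, and Rexo2 had none of the 9. None of the 4 windows held these letters of the sterol regulatory element or of the ISRE, present in 1.05% and 2.98% of promoters. Their GC content was 60.8% for Unc13b, 56.0% for Rexo2, 60.0% for Acyp2 and 66.4% for Cltb, against a median of 52.4% over all promoters.

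Ifi27 showed the largest difference of the 5 in transgenic liver. Its wild-type arrays 1 to 5 read 9.12, 9.29, 9.11, 9.20 and 9.19, and its transgenic arrays 10.32, 10.28, 9.90, 9.95 and 9.81. The lowest transgenic array lay 0.52 above the highest wild-type array, and transgenic 1 and 2 stood above the other three. The means were 9.18 ± 0.07 and 10.05 ± 0.23 (SD, n = 5), a difference of 0.87 or 1.83-fold. A second probe set, whose name ending _s_at marks probes shared between transcripts, had wild-type arrays at 9.0002, 9.30, 9.06, 9.07 and 9.31 and transgenic arrays at 10.31, 10.31, 9.97, 10.01 and 9.76. It kept the same order of high and low transgenic arrays except that 1 and 2 were level at 2 decimals, and it differed by 0.92. Deviations of the arrays from their group means followed each other in the 2 probe sets over the 18 arrays (Pearson r = 0.95, permutation p = 2e-05, adjusted over 5 such pairs of probe sets p = 1e-04; Spearman rho = 0.91, permutation p = 5e-05, adjusted p = 0.00025; r = 0.93 without the 2 arrays farthest from the median).

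Acyp2 read 5.96, 6.01, 5.79, 5.91 and 5.77 on the wild-type arrays and 6.67, 6.22, 6.86, 6.69 and 6.72 on the transgenic arrays. Transgenic 2 stood apart below the other four but still 0.21 above the highest wild-type array. The means were 5.89 ± 0.11 and 6.63 ± 0.24 (SD, n = 5), a difference of 0.74 or 1.68-fold, and 0.85 without transgenic 2. Acyp2 has 1 probe set.

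The wild-type arrays of Unc13b read 4.52, 4.72, 4.86, 4.40 and 4.65, and its transgenic arrays 5.17, 5.22, 5.15, 5.32 and 5.22. Here the wild-type arrays scattered more (SD 0.18) than the transgenic ones (SD 0.07), and the groups were 0.29 apart at their nearest arrays. The means were 4.63 and 5.22, a difference of 0.59 or 1.503-fold (n = 5). This probe set lay low, above 56.4% of all probe sets. The second Unc13b probe set, above only 18.5% of them, ranged from 3.66 to 3.88 over wild-type and from 3.63 to 3.85 over transgenic arrays, so that its groups overlapped and its means differed by -0.03. Deviations in the 2 probe sets had r = 0.30 (permutation p = 0.247, adjusted p = 0.247; Spearman rho = 0.29, permutation p = 0.287, adjusted p = 0.287; r = 0.20 without the 2 farthest arrays). The rise of Unc13b was therefore seen on 1 of its 2 probe sets.

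Rexo2 had the closest wild-type arrays. Its wild-type arrays read 9.89, 9.94, 9.92, 9.87 and 9.99, and its transgenic arrays 10.34, 10.23, 10.23, 10.38 and 10.35. The nearest arrays of the groups were 0.23 apart. The means were 9.92 ± 0.05 and 10.30 ± 0.07 (SD, n = 5), a difference of 0.38 or 1.30-fold. Rexo2 has 1 probe set.

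On its highest probe set Cltb had wild-type arrays at 7.005, 6.95, 6.96, 6.97 and 7.11 and transgenic arrays at 7.46, 7.23, 7.26, 7.43 and 7.45. Transgenic 2 and 3 were the lowest of their group, and wild type 5, the highest of its own, lay 0.12 below transgenic 2. The means were 6.998 ± 0.07 and 7.37 ± 0.11 (SD, n = 5), a difference of 0.37 or 1.29-fold. On the second probe set wild type read 5.20, 5.11, 5.16, 4.93 and 5.39 and transgenic liver 5.44, 5.34, 5.31, 5.45 and 5.00. On the last one wild type read 6.04, 5.78, 6.04, 5.90 and 5.74 and transgenic liver 6.16, 6.11, 6.07, 6.33 and 5.93. The groups overlapped on both, with transgenic 5 the lowest of its group on each although it was near the top on the first probe set. Their differences were 0.15 and 0.22. Between the 3 probe sets the deviations had r between 0.39 and 0.40 (permutation p between 0.0997 and 0.151, adjusted p = 0.188; Spearman rho between 0.32 and 0.53, permutation p between 0.0443 and 0.253, adjusted p between 0.111 and 0.287; r between 0.23 and 0.38 without the 2 farthest arrays).

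**Figure D1:**
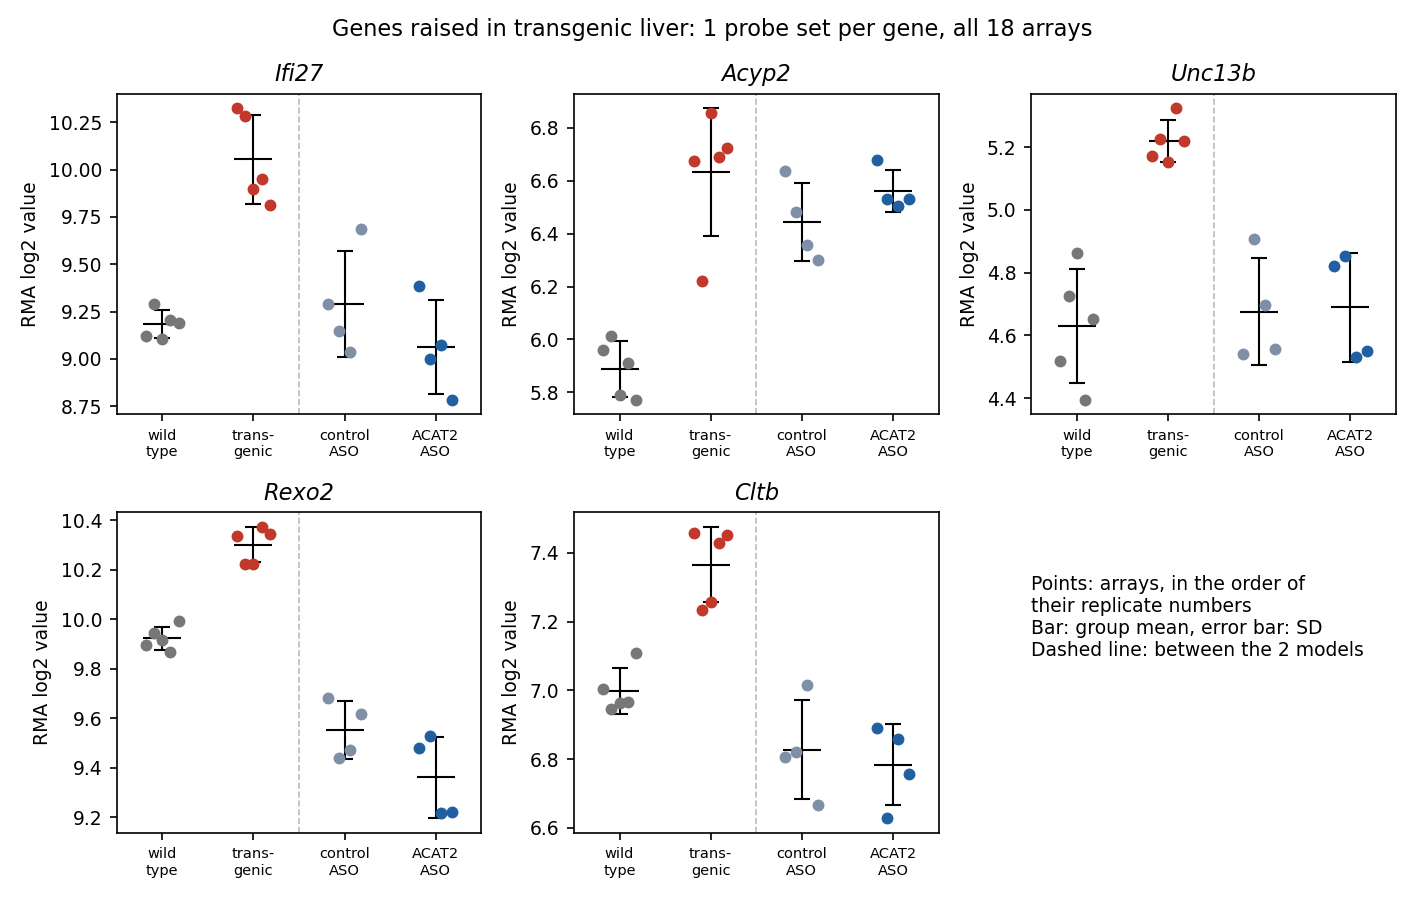
RMA log2 value of each array (vertical axis) in the 4 groups (horizontal axis) for the representative probe set of the 5 genes, with group mean and SD. In each panel all 5 transgenic points lie above all 5 wild-type points, while the ACAT2 ASO and control ASO points overlap.

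Over all genes, 1.42% had every transgenic array above every wild-type array, and limma called 0.170% higher and 0.228% in either direction at an adjusted p under 0.05. All 5 genes belong to those shares by choice. Their place among the calls moved with the setting: with a replicate block 0 of the 5 were called, although the numbers were not taken to pair samples. Ifi27, Acyp2 and Unc13b kept their call without any single array, whereas Rexo2 and Cltb lost it without wild type 3, wild type 4, transgenic 1 or transgenic 4, and Cltb also without wild type 1, wild type 2 or transgenic 5. Since this call helped to choose the genes, keeping or losing it is a description and no test of their rise. In order of the difference in transgenic liver over all 17097 genes, Ifi27 stood at place 19, Acyp2 at 29, Unc13b at 42, Rexo2 at 104 and Cltb at 114. Leaving out each array in turn, the difference stayed between 0.80 and 0.93 for Ifi27, 0.69 and 0.85 for Acyp2, 0.53 and 0.65 for Unc13b, 0.36 and 0.40 for Rexo2, and 0.35 and 0.40 for Cltb. Averaged over all probe sets of the gene it was 0.28 for Unc13b and 0.25 for Cltb.

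After ACAT2 ASO, limma called 0 of the 5 genes, against 0.597% of all genes called in either direction. At an unadjusted p under 0.05 there was 1, Rexo2, against 13.3% of all genes. An exact permutation test of 4 against 4 arrays, whose smallest possible p is 0.0286, gave p between 0.171 and 0.971 over the 5 genes (n = 4). The ACAT2 ASO group overlapped its control group for each of the 9 probe sets. Of all genes, each read on 1 probe set, 9.05% had groups that did not overlap, so 0 of 5 genes is near that share. Whether the effect of the ASO differs from that of the transgene was not tested, because the transgenic difference chose the genes.

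Rexo2 came nearest to a change, downwards. The ACAT2 ASO arrays were at 9.48, 9.53, 9.22 and 9.22, and the controls at 9.68, 9.44, 9.47 and 9.62. Arrays 3 and 4 of the ACAT2 ASO group lay below every control array, and all 4 lay below the control mean. The difference was -0.19 ± 0.07 (SE, 95% interval -0.35 to -0.04, limma p = 0.0182, adjusted p = 0.257; exact permutation p = 0.171, n = 4). Over the 10 alternatives other than leaving out single arrays, the adjusted p ranged from 0.118 to 0.389. Leaving out single arrays lowered it to no less than 0.123.

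For Ifi27 the ACAT2 ASO arrays were at 9.39, 9.002, 9.08 and 8.79, and the controls at 9.29, 9.15, 9.04 and 9.68. Within each group the arrays lay further apart than the means of the groups, which differed by -0.23 ± 0.14 (SE, 95% interval -0.53 to 0.07, limma adjusted p = 0.534). Control ASO 4 was the highest array, and without it the difference was -0.10. The second Ifi27 probe set gave -0.28 (adjusted p = 0.516), with ACAT2 ASO 4 the lowest and control ASO 4 the highest array on both.

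Acyp2 had ACAT2 ASO arrays at 6.68, 6.53, 6.50 and 6.53 and controls at 6.64, 6.48, 6.36 and 6.30, a difference of 0.12 ± 0.11 (SE, 95% interval -0.11 to 0.35, limma adjusted p = 0.709). All 4 ASO arrays lay above the control mean and 1 above every control array. The difference was 0.07 without control ASO 4, 0.08 without ACAT2 ASO 1, 0.18 without control ASO 1 and 0.03 without wild type 2, ACAT2 ASO 1 and control ASO 4. Unc13b read 4.82, 4.85, 4.53 and 4.55 against 4.54, 4.91, 4.70 and 4.56, a difference of 0.01 ± 0.10 (SE, 95% interval -0.20 to 0.23, limma adjusted p = 0.977). Its arrays fell into a higher and a lower pair after ACAT2 ASO, while the control arrays reached above the higher pair, and 1 ACAT2 ASO array lay below every control array. Cltb read 6.89, 6.63, 6.86 and 6.76 against 6.81, 6.82, 7.02 and 6.67, a difference of -0.04 ± 0.08 (SE, 95% interval -0.21 to 0.12, limma adjusted p = 0.876). The remaining Cltb probe sets gave -0.03 and 0.15 (adjusted p = 0.947 and 0.606), so the sign depended on the probe set.

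**Figure D2:**
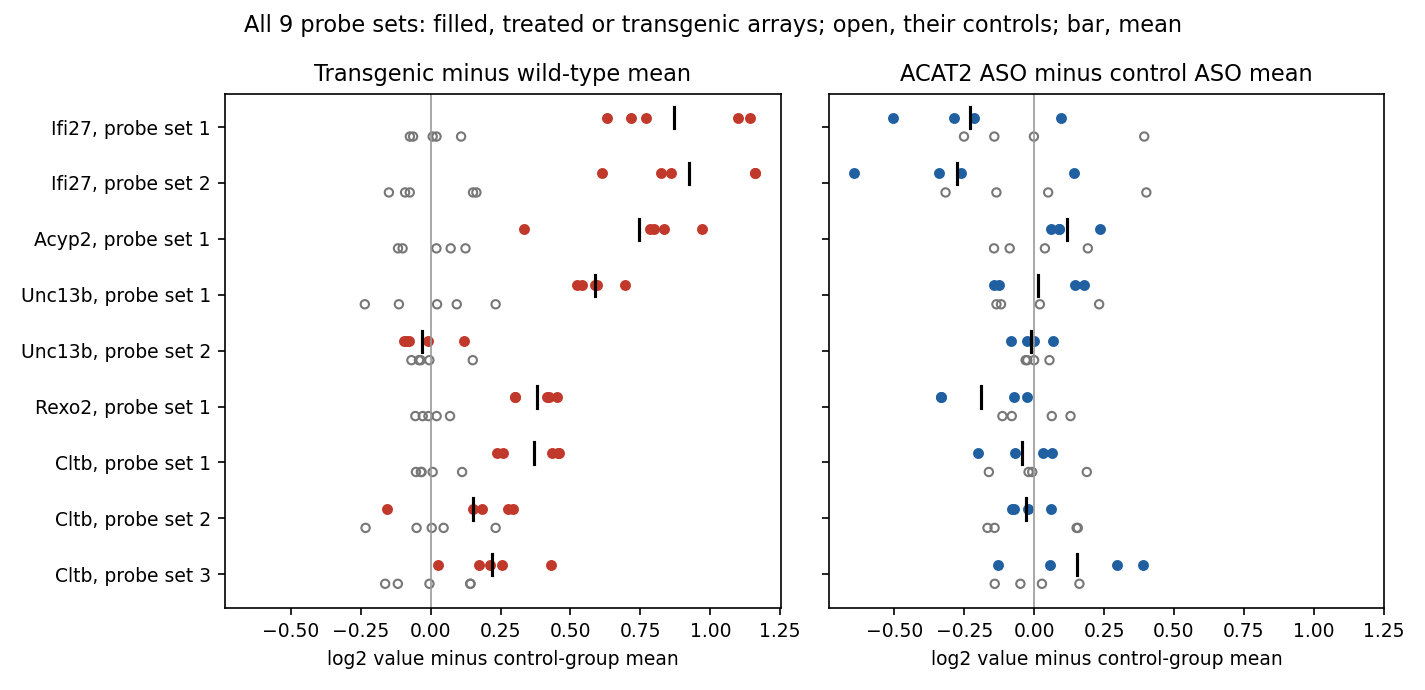
Log2 value of each array minus the mean of its control group (horizontal axis) for the 9 probe sets (vertical axis), in the transgenic model on the left and the ASO model on the right. In transgenic liver 6 probe sets have filled points clear of the open ones, whereas probe set 2 of Unc13b and probe sets 2 and 3 of Cltb overlap, and on the right all 9 overlap.

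Genes of the same families are the nearest comparison for each rise. Of 11 measured relatives limma called 0 in each comparison, against 0.228% of all genes in transgenic liver and 0.597% after ACAT2 ASO. At an unadjusted p under 0.05 there were 2 in transgenic liver and 1 after ACAT2 ASO, against 10.9% and 13.3% of all genes. Ifi27l2a and Ifi27l2b, relatives of Ifi27, are the measured genes on either side of it on its chromosome. Ifi27l2b had wild-type arrays at 6.94, 7.26, 7.05, 7.34 and 6.9995 and transgenic arrays at 7.78, 7.91, 7.57, 7.90 and 7.39. The groups did not overlap, the lowest transgenic array being transgenic 5, which was also lowest for Ifi27. The difference was 0.59 (limma adjusted p = 0.317). After the ASO the same gene read 5.43, 5.71, 4.98 and 5.32 against 6.85, 5.47, 5.38 and 6.09 in controls, a difference of -0.59 (limma adjusted p = 0.303). Control ASO 1 was the highest of all 8 arrays, and the groups overlapped. Its only probe set has a name ending _x_at, which marks probes that may bind other transcripts.

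Ifi27l2a read 8.47, 9.85, 8.98, 8.78 and 8.55 in wild type, and its transgenic arrays ranged from 8.996 to 9.19, with a difference of 0.16 (limma adjusted p = 0.905). Here wild type 2 was higher than every transgenic array, and the groups overlapped. After ACAT2 ASO its difference was 0.31 (limma adjusted p = 0.750).

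Clta, which encodes the other clathrin light chain, differed by -0.09 in transgenic liver (limma adjusted p = 0.519), from 10.98 ± 0.05 to 10.90 ± 0.05 (SD, n = 5), and by 0.01 after ACAT2 ASO (adjusted p = 0.961). Its wild-type and transgenic arrays overlapped, and its second probe set differed by -0.04 and -0.04. The 3 Cltb probe sets lay above 0 in transgenic liver, a side that the choice of Cltb fixed for its representative probe set. The 2 Clta probe sets lay slightly below 0, and a difference between the 2 genes was not tested. Acyp1, the other acylphosphatase gene, differed by 0.05 in transgenic liver and -0.02 after ACAT2 ASO (adjusted p = 0.906 and 0.954). Unc13c and Unc13d, further Munc13 genes, differed by -0.01 each in transgenic liver (adjusted p = 0.963 and 0.988) from wild-type means of only 3.88 and 4.18, and the related Baiap3 by -0.18 (adjusted p = 0.436). After ACAT2 ASO these 3 differed by -0.08, 0.07 and 0.07 (adjusted p between 0.609 and 0.813). The exonuclease genes Rexo1, Rexo4, Rexo5 and Eri1 differed by 0.05, 0.01, 0.06 and 0.14 in transgenic liver (adjusted p between 0.745 and 0.980) and by -0.05, -0.15, -0.16 and 0.21 after ACAT2 ASO (adjusted p between 0.545 and 0.740). A further probe set had the other sign in transgenic liver for Unc13c, Rexo1, Rexo4, Rexo5 and Eri1, among them -0.14 for Rexo4 and -0.07 for Eri1. After ACAT2 ASO this held for Acyp1, at 0.12, and for Rexo1, Unc13c and Clta.

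**Figure D3:**
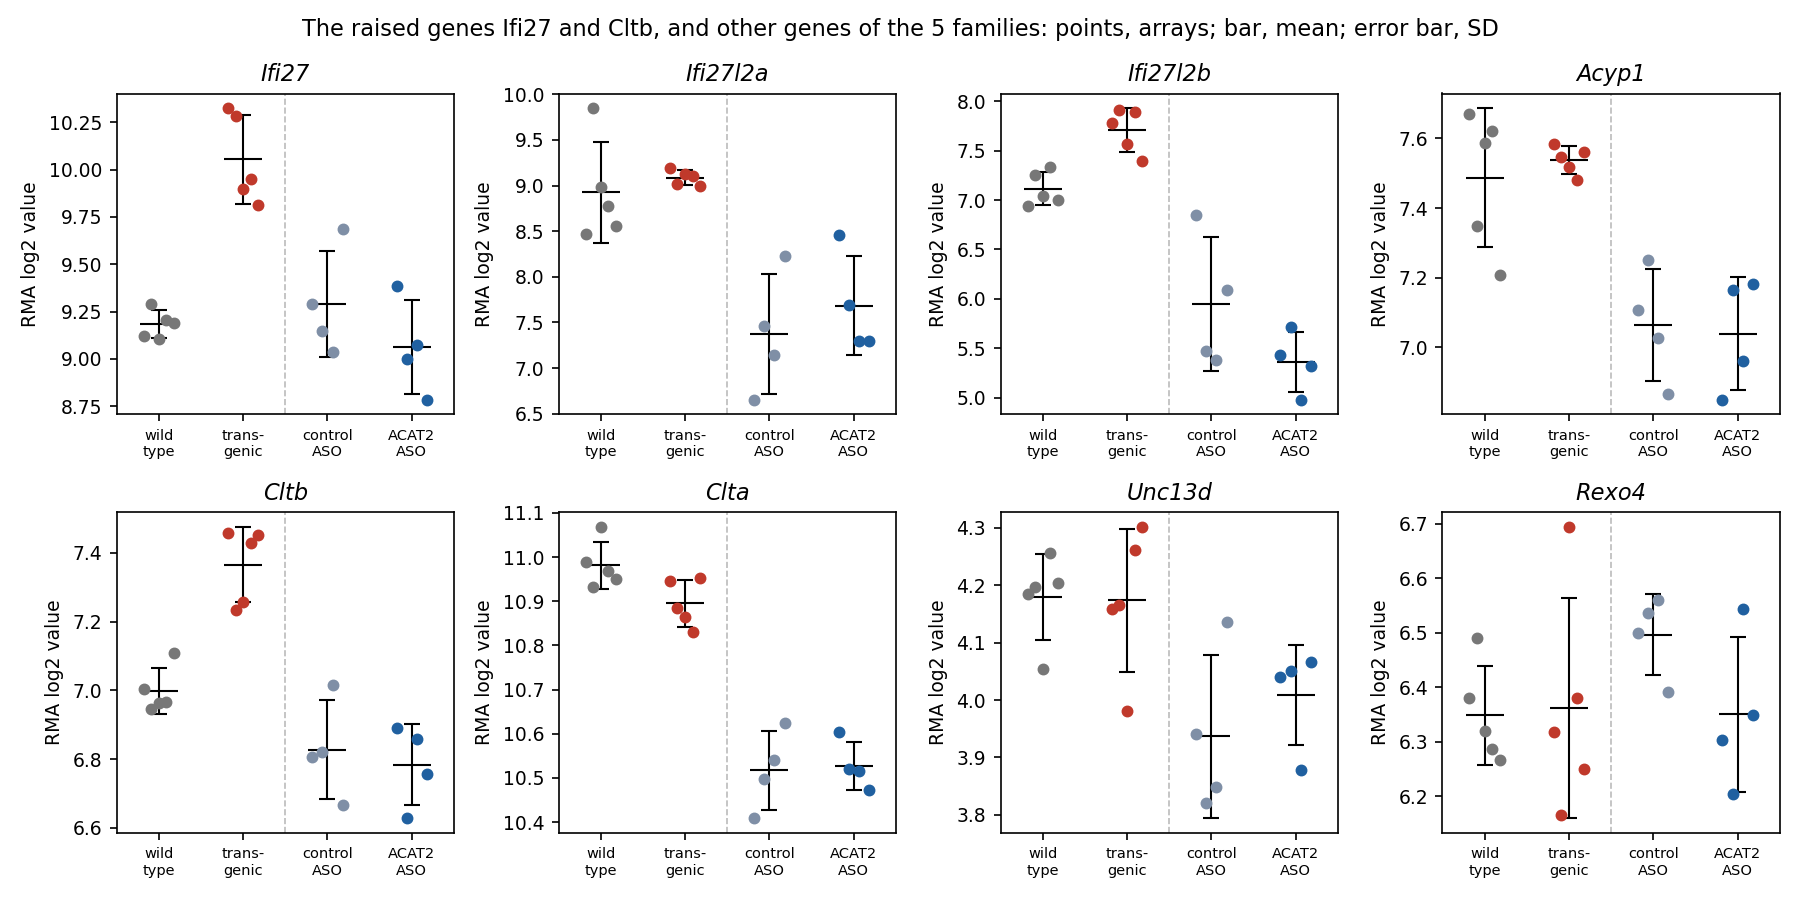
RMA log2 value of each array (vertical axis) by group (horizontal axis) for Ifi27 and Cltb and for 6 other genes of the 5 families, with mean and SD. The transgenic points lie above the wild-type points for Ifi27, Ifi27l2b and Cltb and overlap them for the other five.

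The wider pathways of the 5 genes were read from 5 lists with 152 measured genes. Limma called 0 of them in each comparison, against 0.228% of all genes in transgenic liver and 0.597% after ACAT2 ASO. The median over all 17097 genes was 0.0058 in transgenic liver and -0.00056 after ACAT2 ASO, with 52.6% and 49.7% of genes above 0. An unadjusted p under 0.05 was reached by 10.9% and 13.3% of them, and the counts of each list are to be read against those shares. The 5 genes were chosen by their rise in transgenic liver and the listed genes were not. Where a listed rise is set against that of a chosen gene, the larger rise of the chosen gene follows largely from the choice. Of 32 interferon-stimulated genes, 19 lay above 0 in transgenic liver with a median of 0.04, and 0 had an unadjusted p under 0.05. Their largest rise was that of Igtp, an interferon-induced GTPase gene, by 0.35 (limma adjusted p = 0.862), less than the 0.87 of Ifi27. Without wild type 2, ACAT2 ASO 1 and control ASO 4 Igtp was called in transgenic liver, at 0.83 (limma adjusted p = 0.0401), as the only gene of the 5 lists. The 2 ASO arrays are not part of that comparison and enter only its shared estimate of the spread. With wild type 2 alone left out, 0 listed genes were called in transgenic liver. Wild type 2 had the highest mean over the 32 genes of any array in its model, 8.52 against 7.05 to 7.58 on the other wild-type arrays and 7.30 to 7.70 on the transgenic arrays. On that array Ifi27 read 9.29, the highest of the wild-type arrays and below every transgenic array. Without wild type 2, an array chosen after seeing the data, 27 of the 32 genes lay above 0 with a median of 0.28, and Ifi27 differed by 0.90.

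After ACAT2 ASO 6 of the 32 genes lay above 0, with a median of -0.22, near the -0.23 of Ifi27, and 1 had an unadjusted p under 0.05. That median rested on control ASO 4, whose list mean was 7.74 against 6.26 to 6.34 on the other control arrays and 6.14 to 6.93 after ACAT2 ASO: without it, an omission also chosen after seeing the data, 27 of 32 lay above 0 and the median was 0.14. Without wild type 2, ACAT2 ASO 1 and control ASO 4 it was -0.03. Named by the smallest p, Oas2, which senses double-stranded RNA, differed by 0.23 after ACAT2 ASO (limma adjusted p = 0.362), the exonuclease gene Isg20 by -0.29 (adjusted p = 0.383) and the antiviral GTPase gene Mx2 by -0.14 in transgenic liver (adjusted p = 0.553).

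Of 39 genes of the clathrin coat and its adaptors, 17 lay above 0 in transgenic liver, with a median of -0.01, and 7 had an unadjusted p under 0.05. Gga1, an adaptor between the Golgi and endosomes, differed by 0.20 ± 0.05 (SE, limma adjusted p = 0.121) and Synj2, a lipid phosphatase of coat removal, by 0.22 ± 0.06 (adjusted p = 0.164), each with non-overlapping groups. Both are less than the 0.37 of Cltb, and Synj2 is the largest rise of the list. Synj2 read low, at 4.40 in wild type and 4.62 in transgenic liver, below the 4.74 that bounds the lowest 40% of genes. Only the highest of the 6 probe sets of Synj2 and of the 2 of Gga1 was read. After ACAT2 ASO the median was 0.01, and the membrane-curving protein gene Bin1 differed by -0.26 ± 0.07 (adjusted p = 0.111).

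Of 37 genes of vesicle priming and exocytosis, 22 lay above 0 in transgenic liver, with a median of 0.02 and 1 at an unadjusted p under 0.05, the calcium sensor gene Doc2a at 0.16 (limma adjusted p = 0.351). The largest rise of the list, Sytl1, was also 0.16, against 0.59 for Unc13b. After ACAT2 ASO the median was -0.02, with the vesicle release factor Cadps2 at -0.39 ± 0.13 (adjusted p = 0.169) and the SNARE gene Vamp7 at 0.18 (adjusted p = 0.316).

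Of 34 genes of mitochondrial RNA metabolism, 20 lay above 0 in transgenic liver, with a median of 0.01 and 4 at an unadjusted p under 0.05. The largest rise was that of Pde12, a deadenylase gene, by 0.33 (limma adjusted p = 0.262), near the 0.38 of Rexo2, while Ptcd2, a pentatricopeptide protein gene, differed by -0.16 ± 0.04 (adjusted p = 0.127). After ACAT2 ASO 15 of 34 lay above 0 and the median was -0.07, with 7 at an unadjusted p under 0.05. Endog, a mitochondrial nuclease gene, differed by -0.36 ± 0.10 (adjusted p = 0.0987) and Fastkd5, an RNA processing gene, by 0.34 ± 0.10 (adjusted p = 0.140). Of 10 genes of glycolysis and pyruvate oxidation, 7 lay above 0 in transgenic liver with a median of 0.06 and 1 at an unadjusted p under 0.05, Pdhb, a pyruvate dehydrogenase subunit, at 0.19 (adjusted p = 0.251). After ACAT2 ASO the median was -0.04, with 3 at an unadjusted p under 0.05: Tpi1 at -0.20 (adjusted p = 0.0797), Gapdh at -0.24 (adjusted p = 0.119) and Pdhb at 0.17 (adjusted p = 0.298). With array weights Endog and Tpi1 were called after ACAT2 ASO, at adjusted p = 0.0223 and 0.0277.

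**Figure D4:**
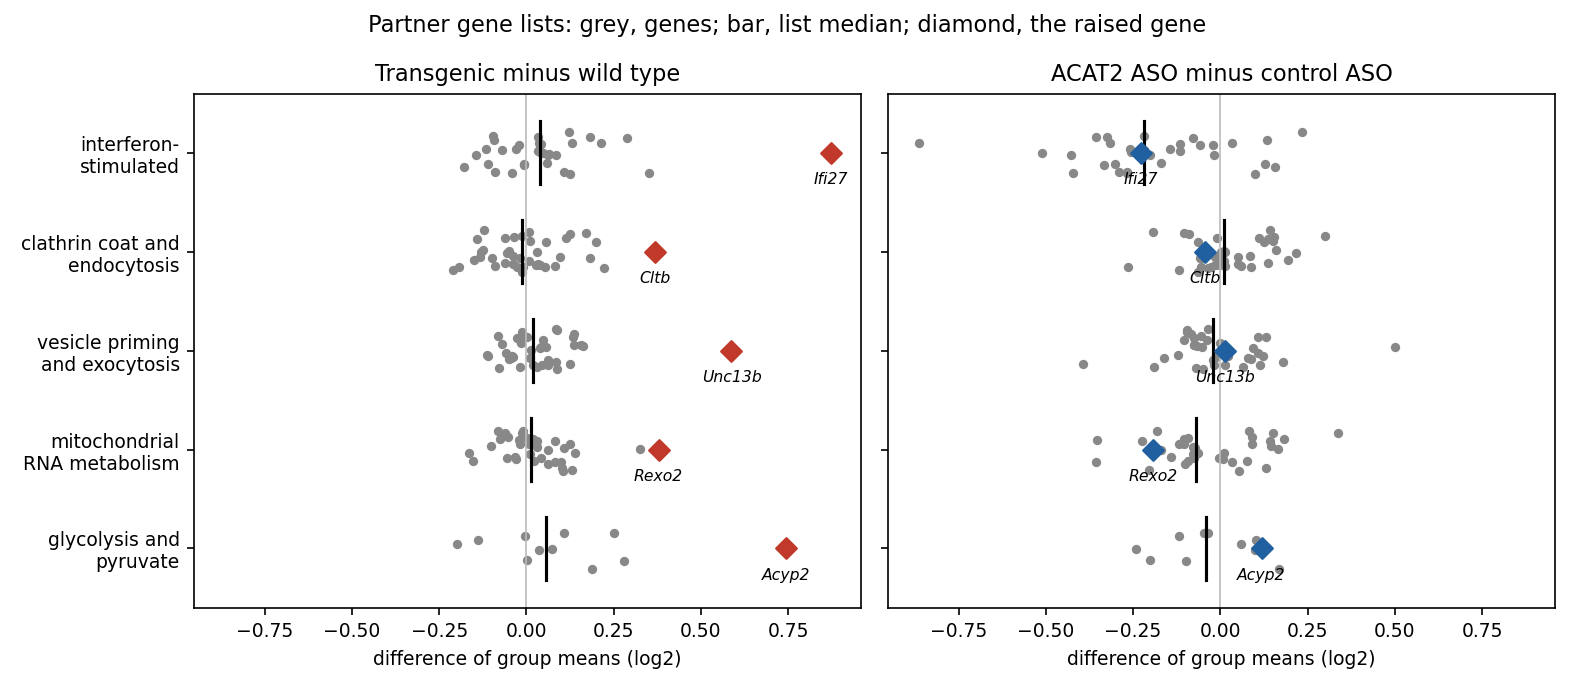
Difference of group means on the log2 scale (horizontal axis) for the genes of 5 lists (vertical axis), with list medians as bars and the raised gene of the same pathway as a diamond. On the left each diamond lies to the right of all genes of its list, and on the right the diamonds lie among them. The diamonds were chosen by the difference on the left, so their place there is a description.

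Cell type markers, the 6 hepatocyte markers among them, gave 0 calls among 52 genes of 10 lists in each comparison. Of all genes, limma called 0.228% in transgenic liver and 0.597% after ACAT2 ASO. In bulk liver, fewer cells of a type and less RNA per cell cannot be told apart. In transgenic liver the list medians lay between -0.08 for pancreatic acinar cells and 0.15 for the 3 adipocyte genes. Macrophage and Kupffer cell markers had a mean between 7.60 and 9.44 on wild-type and between 7.76 and 8.55 on transgenic arrays, with wild type 2 the highest. After ACAT2 ASO all 8 of those markers lay above 0, with a median of 0.44, and their mean ranged from 7.20 to 9.09 against 7.24 to 8.66 in controls. Cholangiocyte markers went the other way, with a median of -0.08 over 5 genes, 1 of them above 0. Their mean ranged from 4.08 to 4.14 after ACAT2 ASO and from 4.17 to 4.81 in controls, without overlap. Of all single genes, 9.05% had groups without overlap in this comparison. Krt19, the largest fall of the list, differed by -1.12 (limma adjusted p = 0.170) and weighs on the list mean more than on the median. The adipocyte median was -0.23, with means of 4.92 to 5.26 against 5.04 to 5.38. The part of these markers in the values of the 5 genes was not tested. RNA integrity was read from Actb and Gapdh, as the 3′ minus the 5′ control value. For Actb it was 0.91 ± 0.08 in wild type and 1.02 ± 0.17 in transgenic liver (SD, n = 5). After control ASO the Actb value was 1.05 ± 0.05, and after ACAT2 ASO 1.05 ± 0.11 (SD, n = 4). For Gapdh it was 0.18 ± 0.05 in wild type and 0.21 ± 0.07 in transgenic liver (SD, n = 5). After control ASO the Gapdh value was 0.17 ± 0.03, and after ACAT2 ASO 0.19 ± 0.10 (SD, n = 4).

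Whether the 5 genes also varied together among arrays of the same group was read from deviations. After each group's mean was subtracted, Pearson r over the 18 arrays lay between -0.25 and 0.37 for the 10 pairs of genes (permutation p between 0.258 and 0.881, adjusted over the 10 pairs p = 0.881), and Spearman rho between -0.17 and 0.34 (permutation p between 0.283 and 0.978, adjusted p = 0.978), so that no pair passed the adjustment. Without the 2 arrays farthest from the median, r lay between -0.29 and 0.44. The highest r over all arrays, that of Ifi27 and Rexo2, was 0.37. It was -0.11 over the transgenic and wild-type arrays and 0.56 over the arrays of the 2 ASO groups. Rexo2 and Cltb had r = 0.87 over the 10 arrays of the transgenic model (permutation p = 0.0177, adjusted p = 0.177) and -0.42 over the 8 of the ASO model (permutation p = 0.333, adjusted p = 0.953). With family genes, the highest r of 11 relations was 0.58, between Ifi27 and Ifi27l2a (permutation p = 0.0195, adjusted p = 0.214; Spearman rho = 0.40, permutation p = 0.128, adjusted p = 0.361), and 0.25 without the 2 farthest arrays.

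Against the means of the 15 lists, 0 of 75 relations passed the adjustment. Ifi27 and the interferon-stimulated list had r = 0.57 (permutation p = 0.0171, adjusted p = 0.349; Spearman rho = 0.36, permutation p = 0.139, adjusted p = 0.641), which was 0.84 over the ASO arrays alone, 0.16 over the transgenic and wild-type arrays alone, 0.37 without the 2 farthest arrays and 0.06 without wild type 2, ACAT2 ASO 1 and control ASO 4. That relation rested on those arrays. Unc13b and the 6 stellate cell markers had r = 0.68 (permutation p = 0.00425, adjusted p = 0.159; Spearman rho = 0.70, permutation p = 0.00241, adjusted p = 0.164), with 0.63 and 0.83 in the transgenic and ASO models and 0.78 without the 2 farthest arrays. Rexo2 and the 2 measured erythroid genes had r = 0.68 (permutation p = 0.00388, adjusted p = 0.159; Spearman rho = 0.71, permutation p = 0.00438, adjusted p = 0.164), with 0.70 and 0.79 in the models and 0.75 without the 2 farthest arrays. The last 2 relations did not pass the adjustment.

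The genes whose deviations were most like those of each of the 5 are given as a description, since they are the highest of the named genes above the lowest 40% by mean level. For Ifi27 they were Nmral1 (r = 0.82 over 18 arrays), Hrc (0.77) and Cnpy3 (0.77), with 0.83 and 0.85 for Nmral1 in the transgenic and ASO models. For Acyp2 they were Mbip (0.84), Phc3 (0.77) and Arpp19 (0.76), the last with 0.98 in the transgenic and 0.33 in the ASO model. For Unc13b they were Rnpc3 (0.82), Nrf1 (0.79) and Haghl (0.77). For Rexo2 they were Sec61b (0.86), Atxn10 (0.86) and Nme1 (0.83), of which Atxn10 had 0.17 in the transgenic and 0.99 in the ASO model. For Cltb they were Dnajc3 (0.89), Ghitm (0.82) and Ubac2 (0.80), with 0.83 and 0.92 for Dnajc3 in the transgenic and ASO models. None of these 15 genes was called in either comparison by limma, and their differences in transgenic liver lay between -0.17 and 0.21. Of all genes only 0.228% were called in transgenic liver and 0.597% after ACAT2 ASO, so no call among 15 is near those shares.

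The measured genes next to each on its chromosome, by the RefSeq gene order of GRCm38.p6, were also read. Beside Acyp2, Erlec1, a lectin of the endoplasmic reticulum, differed by 0.20 in transgenic liver (limma adjusted p = 0.251) and 4930505A04Rik by -0.01. Beside Unc13b, Rusc2 differed by 0.22 (adjusted p = 0.502) and Fam214b by -0.03. Beside Rexo2, Nxpe2 differed by 0.19 (adjusted p = 0.672) and Rbm7 by 0.0076, and beside Cltb, Higd2a by 0.06 and Faf2 by -0.0047. Apart from Ifi27l2b, described above, limma gave these neighbours and Ifi27l2a adjusted p between 0.251 and 0.985 in transgenic liver. Of the 10 neighbours 0 were called, which is near the 0.228% called of all genes.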

How the data were processed

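Liver RNA of 18 samples was measured on Affymetrix MG-430 PM arrays. The deposited values are log2 expression per probe set, made with RMA per the submitters' processing notes, and were used as deposited. The levels of the 2 models are not compared. Of 45141 probe sets, 104 controls were left out. The platform annotation gave 1 symbol to 28898 of the 45037 others, several to 551 and none to 15588. Where a gene had several probe sets, the one of highest mean stands for it, giving 17097 genes. One limma fit (version 3.58.1, R 4.3.3) held all 4 groups, with Benjamini-Hochberg adjustment over all genes and a threshold of 0.05. It was tested on simulated data.

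The 5 genes, the gene lists and the arrays said to stand apart were chosen with earlier results of these data known. The text names the 5 genes, their measured relatives and neighbours, up to 3 genes of each pathway list with the smallest p, and for each gene the 3 with the most similar deviations from group means among genes above the lowest 40%. A list's largest rise or fall, and genes called under an alternative, were named after their values were seen. Correlations used 100000 permutations within groups. Promoters are from RefSeq (GRCm38.p6).

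Same-numbered samples had correlations of deviations from -0.48 to 0.17 between wild type and transgenic and from -0.48 to 0.47 between the ASO groups, so the numbers were not taken to pair samples. Alternatives covered the filter on low values, centring, quantile normalization, probe set choice, arrays in the fit, the variance model, array weights, a replicate block and left-out arrays. The target of the ACAT2 ASO was not analysed here.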

Additional observations from a re-analysis of the deposited data

Results flagged for a closer look

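Acyp2 had single arrays far from the rest of their group in both models. Transgenic 2 read 6.22, the lowest of its group, with a gap to the next array of 0.711 of the group's range. ACAT2 ASO 1 read 6.68, the highest of its group, with a gap of 0.839 of the range. These were 2 of 36 groups of values tested over the 9 probe sets, and chance flags about 1 in 20.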

How the results depend on the processing

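The number of the 5 genes called after ACAT2 ASO was 0 under all 10 alternatives and without each array in turn. Averaging all probe sets per gene, the difference in transgenic liver was 0.28 for Unc13b and 0.25 for Cltb, and that of Cltb after ACAT2 ASO was 0.027. Unc13b after ACAT2 ASO turned to -0.069 with array weights and -0.071 without wild type 2, ACAT2 ASO 1 and control ASO 4. Leaving out single arrays, it lay between -0.042 and 0.090, and Cltb between -0.097 and 0.020. Among all genes, calls in transgenic liver numbered 39 in the main analysis, 78 with every probe set tested, 13 with only the arrays of the comparison, 2 with a replicate block, and 20 to 58 without single arrays (20 without wild type 3). Calls after ACAT2 ASO numbered 102, then 219, 17 and 18 under the same settings, 465 with array weights, 46 without the 3 arrays, and 42 to 203 without single arrays (42 without ACAT2 ASO 3, 203 without ACAT2 ASO 2). Of the pathway lists, 2 genes were called after ACAT2 ASO with array weights and 1 in transgenic liver without the 3 arrays. The causes were not tested. With the replicate block 0 of the 5 genes were called in transgenic liver. Quantile normalization and the arrays of the comparison alone each left 4 of 5, without Cltb, and averaged probe sets left 3, without Unc13b and Cltb. These calls in transgenic liver use the values that chose the genes, so they are a description and no test. The number of arrays limits the precision.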
